A study of Mus musculus with 12 samples.

Results

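H3.1K9M was compared with wild-type H3.1 (H3.1WT) in stably modified mouse embryonic stem cells of the J1 strain, 2 libraries against 2. The genes described are those with at least 1 FPKM (fragments per kilobase of transcript, scaled to sequencing depth) in at least 2 of these 4 libraries, which were 12508 of 23354 genes. Of them 11747 reached 1 FPKM in all 4 libraries. Just inside that limit lay Farp2, with a second-highest value of 1.00065 FPKM, and just outside it Rab26, with 0.99796. In H3.1K9M the lysine at position 9 of histone H3.1 is replaced by methionine. Both lines overexpressed an H3.1 histone, so the control carried extra H3.1 too. All cells grew on inactivated mouse embryonic fibroblasts, which feed the stem cells, in medium with serum and leukemia inhibitory factor (LIF). The series holds 12 libraries in 6 groups of 2. The others are H3.1K36M in the overexpression arm, and shNC (read as the control hairpin), shSuv39h1 and shSuv39h2 in the knockdown arm. The labels give neither the promoter of the transgenes nor their level, nor whether a line was 1 clone or a pool. Whether paired libraries came from separate cultures is not stated in the labels. All p-values therefore measure the spread between libraries, and this spread may be technical.

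Methylation of lysine 9 of histone H3 marks silent chromatin. It is written by enzymes such as Suv39h1, Suv39h2, Setdb1 and Ehmt2, and it is read by HP1 proteins. A histone with methionine in that place is known to interfere with these enzymes and to lower the mark on the histones around it. In mouse stem cells the mark lies on satellite repeats, on retrotransposons and on many genes that belong to germ cells or to the earliest embryo. H3.1 itself is laid down mainly while DNA is copied.

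The libraries had similar depth but the H3.1K9M libraries differed more from each other than any other pair. Depth was read from the steps between low values: of 5976 values, 96.0% fell on a whole step (tolerance 0.05). By this estimate a 2 kb transcript at 1 FPKM was covered by 42.3 to 51.9 fragments in the 4 libraries. The log2 difference between paired libraries had an SD over genes of 0.41 for H3.1K9M and 0.26 for H3.1WT, and of 0.223 to 0.345 elsewhere. The test shares its estimate of spread over all 6 groups, so its p-values can be too small for H3.1K9M. All 8 stem cell markers were above 1 FPKM in every library, with a summed level of 3122 to 3904 FPKM in H3.1K9M and 3966 to 4359 in H3.1WT. The 36 fibroblast markers summed to 5101 and 2466 FPKM in H3.1K9M replicates 1 and 2 and to 1817 and 2829 in H3.1WT replicates 1 and 2. None of the fibroblast markers was at 0 in either group, and the 10 that define fibroblasts summed to 240 to 479.6 against 131.4 to 253.5 FPKM. The part of the feeder cells in the results below was not tested except by the covariate named there. In bulk RNA, fewer cells of a type and less RNA per cell cannot be told apart.

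Nearly all called genes were lower in H3.1K9M, and many of them were genes of low level that belong to germ cells or the early embryo. By limma on log2(FPKM + 1), with Benjamini-Hochberg adjustment over 13109 genes and a threshold of 0.05, 3 of the 12508 described genes rose (0.024%) and 38 fell (0.304%). The libraries of the groups did not overlap for any of these 41 genes (0.328%). Without a call, non-overlap was common: 1855 genes (14.8%) had both H3.1K9M values above both H3.1WT values, and 2530 (20.2%) had both below. At an unadjusted p under 0.05 the counts were 641 higher (5.12%) and 767 lower (6.13%). Of the 38 lower genes 24 had a mean below 10 FPKM in H3.1WT and 17 a mean below 5 FPKM. Low levels were common among all 12508 described genes too, with 6471 and 4080 below these limits. The median level of the lower genes was 6.06 FPKM in H3.1WT and 1.97 FPKM in H3.1K9M, and 10 of them reached 1 FPKM in the H3.1WT libraries only. These 10 are described only through the group where they are high, also where a list below holds them. The smallest decrease among them was 1.47-fold and the median decrease 2.99-fold, both as ratios of mean FPKM. Log2 fold changes are on the log2(FPKM + 1) scale, which understates the change of genes near 1 FPKM. Most genes stayed close to equality: 96.2% had a log2 fold change within 0.5 of 0, only 6 reached 1 and 36 reached −1. With a mean of at least 3 FPKM in the higher group and no overlap, 6 genes were at least 2 times higher (0.048%) and 35 at most 0.5 times as high (0.28%).

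**Figure D1:**
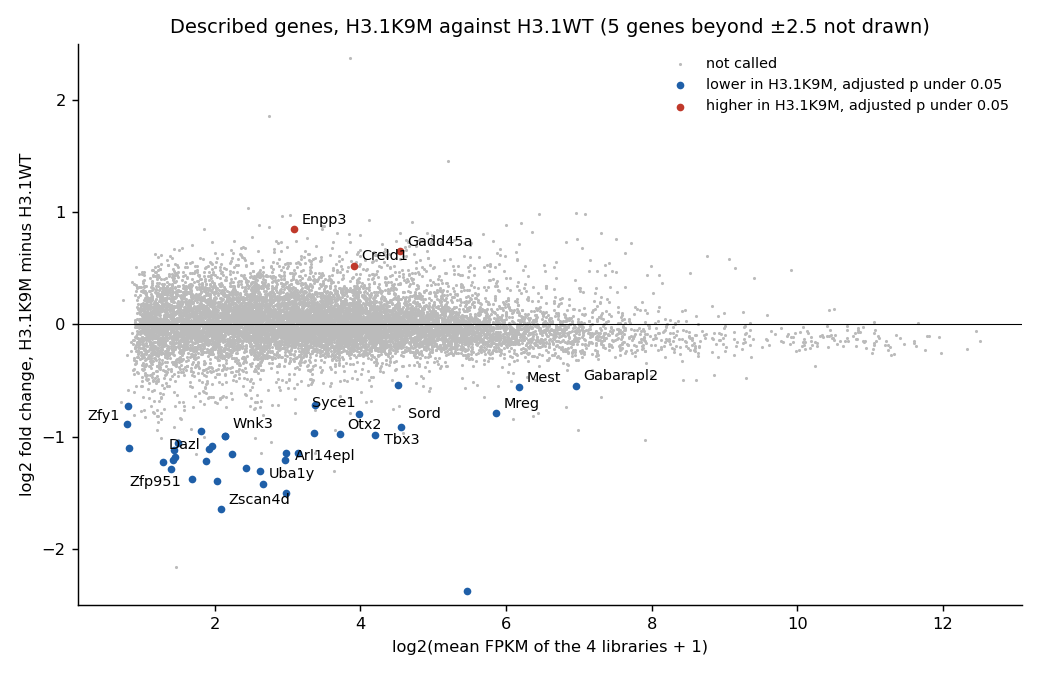
Each point is a described gene, with the log2 of its mean FPKM plus 1 over the 4 libraries on the x axis and its log2 fold change, H3.1K9M minus H3.1WT, on the y axis. Blue points (38 genes, of which Snora70 lies outside the axis) passed the test as lower and red points (3 genes) as higher. Most lower genes lie at the left, at low levels, as do many other described genes. The cloud of abundant genes at the right sits slightly below 0.

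Most calls were lost when an H3.1WT library or H3.1K9M replicate 1 was left out, while the changes stayed about as large. Relative to the log2 fold change over all libraries, that of the 41 genes was 0.78 to 1.12 times as large without H3.1WT replicate 1 and 0.88 to 1.22 times without H3.1WT replicate 2. With the first of these left out, 2 of the 41 genes still passed (median adjusted p = 0.265 in limma), and without H3.1WT replicate 2 also 2 (median 0.114). The changes were 0.74 to 1.23 times as large without H3.1K9M replicate 1 and 0.77 to 1.26 times without H3.1K9M replicate 2. A group left with 1 library adds nothing to the estimate of spread, and the H3.1K9M libraries differed most from each other. Passing without an H3.1K9M library is therefore no sign that a call holds. In a limma fit to the 4 libraries alone 1 of the 41 passed, Snora70, and with array quality weights 1, Uba1y. Every one of the 41 kept its direction in these fits. This was fixed in advance, because the libraries of the groups did not overlap for these genes.

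Of the called genes 8 belonged to a list of 2-cell-like genes, and all 8 were lower. These are transcripts of the embryo at its 2-cell stage, which a few stem cells in a culture express in bursts. Of 44 listed genes 18 were described, 8 of them fell and none rose. Of all described genes 0.304% fell, which is the share to set beside the calls in each list below. Both H3.1K9M values were below both H3.1WT values in 16 of the 18 (20.2% of all described genes) and above them in 1. The median log2 fold change of the list was −1.04, against −0.008 over all described genes. The median was −0.76 in H3.1K9M replicate 1 and −1.18 in replicate 2, which was the replicate with fewer fibroblast transcripts. Over all alternative settings the median of the list lay between −1.56, with a pseudocount of 0.1, and −0.76, without H3.1K9M replicate 2.

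Zscan4 genes encode zinc finger proteins that protect telomeres in these cells, and 4 of them fell. Zscan4d was at 1.26 and 0.834 FPKM in H3.1K9M and at 6.08 and 4.76 FPKM in H3.1WT (log2 fold change −1.65, SE 0.199, limma adjusted p = 0.0178). Zscan4c was at 2.08 and 1.77 against 5.27 and 5.78 FPKM, and Zscan4f at 4.35 and 3.11 against 9.52 and 10.2 FPKM. Both H3.1K9M values were below both H3.1WT values in each case. Zscan4e was lowest of the 4, at 0.753 and 0.651 against 3.39 and 2.11 FPKM. The 4 genes lie together on chromosome 7 between bases 11005745 and 11402318 (mm10, GRCm38), where no other described gene lies.

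Usp17lb, which encodes a deubiquitinating enzyme of a multicopy family, was at 1.02 and 0.644 FPKM in H3.1K9M and at 3.02 and 2.57 FPKM in H3.1WT. Its relative Usp17le did not pass, with 1.49 and 0.674 against 4.15 and 3.00 FPKM (adjusted p = 0.0593). A second cluster of called genes was made of the predicted genes Gm8300, Gm2016, Gm2022 and Gm5662, on chromosome 12 between 87514316 and 88274500. Gm5662 had the highest level of these, with 4.04 and 2.33 FPKM in H3.1K9M and 11.5 and 9.72 FPKM in H3.1WT. All 4 described genes in that stretch fell, with a median log2 fold change of −1.35. Zscan4 and Usp17l genes and the chromosome 12 cluster are families of near-identical copies, so how the authors' counting shared reads between copies leaves each single value uncertain. Of the 9 genes of these families that fell, 0 passed without H3.1WT replicate 1 (adjusted p 0.171 to 0.432), 1 without H3.1WT replicate 2 (0.0191 to 0.229) and 5 without H3.1K9M replicate 1 (0.0117 to 0.0619). With the mean of the fibroblast markers as a covariate 7 of the 9 passed (0.011 to 0.0637).

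The stretches before the start sites of 6 lower genes are shown because the lower genes as a group had promoters poor in CpG. Each run is the 250 bases before the first listed RefSeq start (build GRCm38.p6), 5′ to 3′ on the strand of the gene, and capitals mark every CG. The first 4 are 2-cell-like genes with 1 to 3 CG, and the others are germ cell genes with 20 and 17.
Zscan4c (chr7:11005495-11005744, plus strand): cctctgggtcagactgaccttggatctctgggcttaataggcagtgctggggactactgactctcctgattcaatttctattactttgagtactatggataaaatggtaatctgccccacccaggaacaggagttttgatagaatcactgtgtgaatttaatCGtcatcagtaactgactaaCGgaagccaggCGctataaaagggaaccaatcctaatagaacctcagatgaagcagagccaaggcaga
Zscan4d (chr7:11166149-11166398, minus strand): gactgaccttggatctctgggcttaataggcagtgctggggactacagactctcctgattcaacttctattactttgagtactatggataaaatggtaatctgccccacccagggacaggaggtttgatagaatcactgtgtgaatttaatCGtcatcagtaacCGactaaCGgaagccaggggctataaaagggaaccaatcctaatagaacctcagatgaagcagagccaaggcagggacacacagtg
Zscan4f (chr7:11397665-11397914, plus strand): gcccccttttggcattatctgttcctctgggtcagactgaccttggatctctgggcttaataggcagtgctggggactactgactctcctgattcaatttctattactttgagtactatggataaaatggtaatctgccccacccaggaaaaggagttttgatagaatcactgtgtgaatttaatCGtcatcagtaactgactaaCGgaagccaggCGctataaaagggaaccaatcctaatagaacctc
Usp17lb (chr7:104842584-104842833, minus strand): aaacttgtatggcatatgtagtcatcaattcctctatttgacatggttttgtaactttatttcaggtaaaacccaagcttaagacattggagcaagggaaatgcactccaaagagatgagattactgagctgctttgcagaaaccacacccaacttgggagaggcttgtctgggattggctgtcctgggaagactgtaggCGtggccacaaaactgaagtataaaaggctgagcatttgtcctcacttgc
Dazl (chr17:50293621-50293870, minus strand): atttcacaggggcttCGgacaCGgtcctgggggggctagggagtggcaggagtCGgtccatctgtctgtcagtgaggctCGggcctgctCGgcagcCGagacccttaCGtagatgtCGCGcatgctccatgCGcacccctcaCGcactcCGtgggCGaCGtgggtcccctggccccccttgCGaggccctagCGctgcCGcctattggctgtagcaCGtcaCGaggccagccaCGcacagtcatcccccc
Fkbp6 (chr5:135350045-135350294, minus strand): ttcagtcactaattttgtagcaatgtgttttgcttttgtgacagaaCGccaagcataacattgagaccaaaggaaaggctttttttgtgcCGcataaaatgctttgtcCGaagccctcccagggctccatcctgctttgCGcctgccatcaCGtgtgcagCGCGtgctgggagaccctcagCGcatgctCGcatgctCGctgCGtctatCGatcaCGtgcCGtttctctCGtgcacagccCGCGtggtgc
The 3 Zscan4 stretches hold nearly the same letters, shifted against each other by where RefSeq places the start. The letters TATAAA begin at position −54 in Zscan4c, −65 in Zscan4d, −31 in Zscan4f and −31 in Usp17lb, where −1 is the last base before the start. CCAAT follows at −42, −53 and −19 in the Zscan4 genes.

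RefSeq promoters of 300 bases, 250 before and 50 after the start, could be matched for 28 of the 38 lower genes and 9261 of the 12508 described genes. Only the first entry of each gene was used. Some lower genes had more, such as Mest with 3 entries and Otx2 with 4, and their other starts were not examined. The ratio of observed to expected CpG was at least 0.6 in 8 of the 28 (28.6%), against 74.3% of all matched promoters. Lower genes had a median of 8 CpG per promoter and a GC content of 51%, against 21 CpG and 61.3%. Genes of low level have fewer CpG in general: among described genes below 10 FPKM in H3.1WT the share with a ratio of at least 0.6 was 66.1%, and among the 18 matched lower genes below that level it was 16.7%. Below 5 FPKM these shares were 60.5% and 21.4%. TATAAA, read on both strands, occurred in 8 of the 28 (28.6%), among them Wnk3, Fetub, Gstm5 and Otx2, and in 6.89% of all matched promoters. Below 10 FPKM in H3.1WT it occurred in 5 of 18 matched lower genes (27.8%) against 7.32%. Below 5 FPKM it occurred in 2 of 14 (14.3%) against 8.05%. CCAAT, on both strands, occurred in 16 (57.1%) against 39.2%. The palindrome CACGTG, the E-box bound by many basic helix-loop-helix factors, occurred in 1 of the 28, Fkbp6, and in 10.7% of all promoters. TCCCGC, letters of the site bound by E2F6, occurred in 3 (10.7%) against 37.3%. Near-identical copies share their promoters, so these genes are not independent, and the shares carry no test.

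Several genes of germ cells fell too. Of 35 described genes from a list that promoter DNA methylation is known to silence in body cells, 4 fell (Fkbp6, Dazl, Tuba3b and Syce1), none rose, and 25 had both H3.1K9M values below both H3.1WT values, against 20.2% of all described genes. The median log2 fold change was −0.45, with −0.49 in H3.1K9M replicate 1 and −0.31 in replicate 2. Fkbp6 encodes a prolyl isomerase needed for meiosis and for the small RNA defence of germ cells. It was at 1.30 and 1.46 FPKM in H3.1K9M and at 4.06 and 3.19 FPKM in H3.1WT (log2 fold change −0.95, SE 0.124, limma adjusted p = 0.0214). Dazl encodes an RNA-binding protein of germ cells and was at 1.38 and 1.63 against 3.85 and 4.77 FPKM. Tuba3b, an alpha-tubulin gene of testis with a close copy, was at 0.593 and 0.664 against 3.04 and 2.5 FPKM. In all of these the groups were well apart.

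Among 23 described genes of meiotic chromosomes 1 fell, Syce1, a component of the synaptonemal complex that joins paired chromosomes. It was at 9.23 and 11.9 FPKM in H3.1K9M and at 17.9 and 20.1 FPKM in H3.1WT (adjusted p = 0.0313). The meiotic cohesin gene Stag3 (14.1 ± 1.44 against 19.9 ± 1.02 FPKM, SD, n = 2) and Psmc3ip, a recombination factor (18.4 and 21.3 against 26.4 and 25.4), did not pass, with adjusted p values of 0.233 and 0.246. The list median was −0.38 in replicate 1 but −0.02 in replicate 2. Of 25 described genes of the piRNA pathway and germ granules 2 fell, Fkbp6 and Dazl, and 13 had both values below H3.1WT (20.2% of all described genes did). The median was −0.20, and −0.06 with the fibroblast covariate. Tdrkh, a tudor-domain protein of that pathway, had 3.15 and 3.28 against 4.82 and 4.40 FPKM and an adjusted p of 0.198.

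Of 39 oocyte genes in the list 9 were described, and 2 of them fell (0.304% of all described genes did). The median was −0.42, and −0.26 with the fibroblast covariate. Sohlh2, a basic helix-loop-helix factor of early spermatogonia and oocytes (chromosome 3, 55182028 to 55209957), was at 5.46 and 6.57 FPKM in H3.1K9M and at 12.3 and 13 FPKM in H3.1WT (adjusted p = 0.0313). Nlrp4c, of an oocyte family of NLR proteins, was at 0.321 and 0.315 against 1.17 and 1.20 FPKM. Nlrp4f (0.830 and 0.852 against 1.65 and 1.44 FPKM) and Ooep, part of the subcortical complex of the egg (20.3 and 25.7 against 33.8 and 29.9 FPKM), did not pass. Their adjusted p values were 0.216 and 0.233. Nlrp4c and Nlrp4f reached 1 FPKM in the H3.1WT libraries only. They are among the 9 only through the group where they are high, which bears on the counts and the median.

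Of 409 described genes on X 6 fell (1.47%) and none rose, and of 5 on Y 2 fell. As a whole X was close to all described genes: 85 of the 409 (20.8%) had both H3.1K9M values below both H3.1WT values, against 20.2%, and its median was −0.01. All 5 Y-linked genes had both H3.1K9M values below both H3.1WT values, at medians of −0.61 in replicate 1 and −0.47 in replicate 2. Uba1y, a ubiquitin-activating enzyme gene expressed in testis, had the smallest p of all genes. It was at 2.38 and 2.71 FPKM in H3.1K9M and at 8.09 and 7.43 FPKM in H3.1WT, a 3.05-fold decrease (limma adjusted p = 0.00292). Its neighbour on the short arm of Y, the zinc finger gene Zfy1, was at 0.274 and 0.176 against 1.34 and 1.19 FPKM. Eif2s3y, a translation factor subunit, did not pass, with 15.7 and 21.5 against 24.4 and 24.7 FPKM.

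On X, Wnk3, a kinase that controls ion cotransporters, was at 1.78 and 2.12 FPKM in H3.1K9M and at 4.53 and 5.19 FPKM in H3.1WT (adjusted p = 0.012). H2bfm, an H2B-like histone gene, was at 0.206 and 0.0380 against 1.59 and 1.21 FPKM, values that rest on few fragments. The unnamed testis clone 1700013H16Rik was at 0.446 and 0.6 against 2.38 and 3.1 FPKM. For Uba1y, Zfy1, Wnk3, H2bfm and 1700013H16Rik most calls were lost without H3.1WT replicate 1 or without H3.1WT replicate 2. Among 14 described Xlr, Mage and related X-linked genes, multicopy families of germ cells, 1 fell, and 12 had both values below H3.1WT (20.2% of all described genes did) at a median of −0.42. Xlr3b was at 3.75 and 5.33 FPKM in H3.1K9M and at 12.5 and 9.91 FPKM in H3.1WT. Mageb16 was at 15.7 and 16.2 against 22.0 and 21.6 FPKM and did not pass (adjusted p = 0.102), nor did Xlr3c, at 0.763 and 0.515 against 2.10 and 1.35 FPKM (adjusted p = 0.18).

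Of 6 described Rhox genes, homeobox factors of reproductive tissue in a cluster on X, 1 fell. Rhox13 was at 1.47 and 2.51 FPKM in H3.1K9M and at 4.63 and 5.12 FPKM in H3.1WT (adjusted p = 0.0342). Rhox1 (1.79 and 2.07 against 4.23 and 3.01 FPKM, adjusted p = 0.184) and Rhox9 (6.09 and 4.90 against 7.17 and 6.49 FPKM, adjusted p = 0.484) did not pass. The others were Rhox10, also with both values below H3.1WT, Rhox5, with both above it (60.7 and 53.6 against 52.4 and 52.7 FPKM), and Rhox6, where the groups overlapped (5.93 and 4.49 against 5.21 and 5.05 FPKM). For 8 germ cell genes (Dazl, Fkbp6, Tuba3b, Syce1, Sohlh2, Nlrp4c, Rhox13 and Xlr3b) no call held without H3.1WT replicate 1 (adjusted p 0.155 to 0.265), H3.1WT replicate 2 (0.0636 to 0.232) or H3.1K9M replicate 1 (0.0619 to 0.129). With the fibroblast covariate 3 of the 8 passed (0.0231 to 0.0756).

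**Figure D2:**
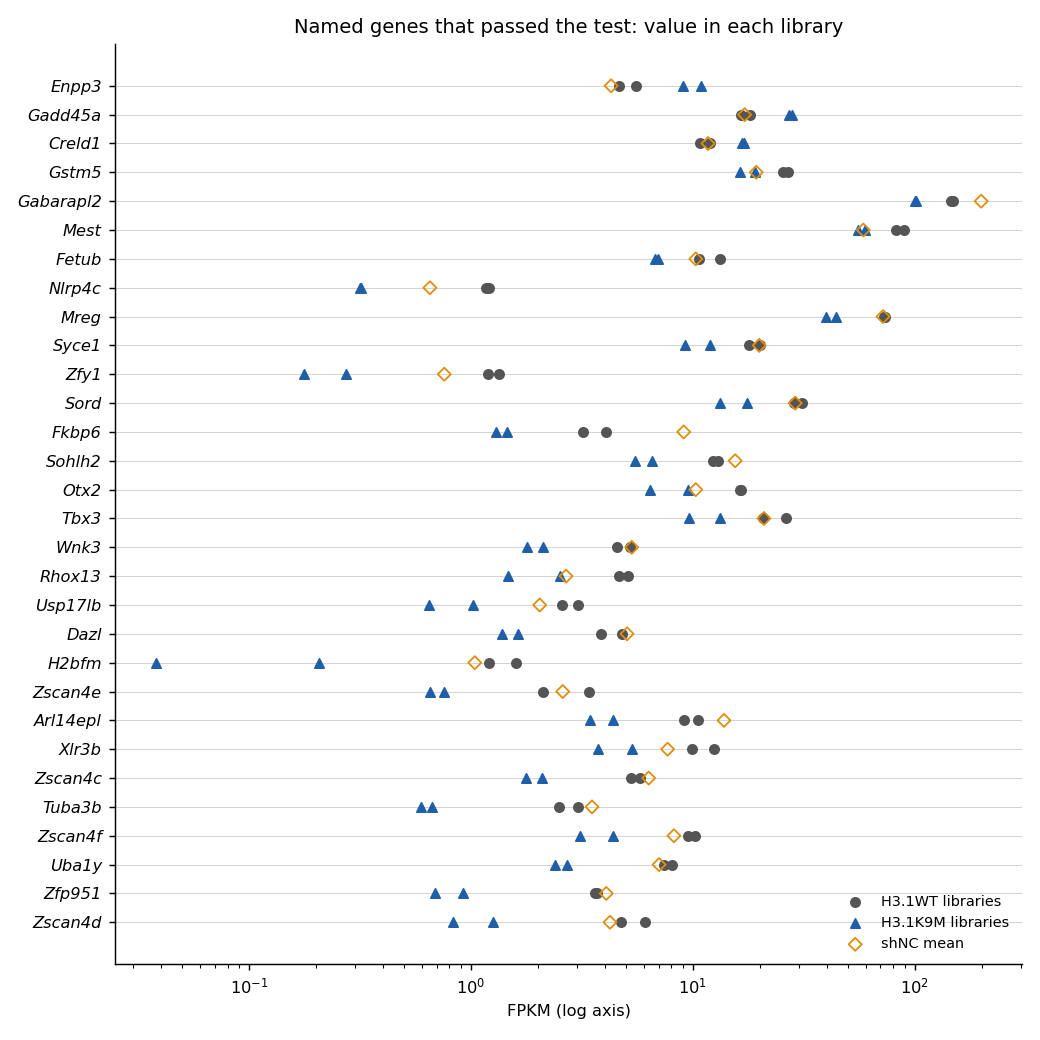
FPKM, on a log axis, of the 30 called genes with plain symbols, ordered by log2 fold change, with a circle for each H3.1WT library, a triangle for each H3.1K9M library and an open diamond for the mean of the 2 shNC libraries. Circles and triangles are apart in each row, and the shNC mean of every lower gene lies above the H3.1K9M mean.

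Of 34 described genes of naive pluripotency 1 fell, Tbx3, and 17 had both H3.1K9M values below both H3.1WT values (20.2% of all described genes did). The median log2 fold change was −0.38 in H3.1K9M replicate 1 and −0.13 in replicate 2, and the replicate with the lower level of these genes was the one with more fibroblast transcripts. Tbx3, a T-box factor that supports self-renewal, was at 13.2 and 9.64 FPKM in H3.1K9M and at 26.3 and 20.7 FPKM in H3.1WT (adjusted p = 0.0327). Eras, a Ras-like protein of stem cells, was at 23.4 and 23.4 against 34.5 and 31.3 FPKM and missed the threshold (adjusted p = 0.0584). Pecam1, an adhesion molecule that stem cells also carry, was at 20.6 and 26.4 against 38.4 and 33.2 FPKM (adjusted p = 0.138). Nanog, a central factor of naive cells named after its values were seen, was at 109 and 136 against 184 and 199 FPKM and did not pass (adjusted p = 0.227).

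Of 22 described core pluripotency genes 1 fell, Otx2, at a median of −0.02. Otx2, a homeobox factor that drives the exit to the primed state, was at 6.43 and 9.49 FPKM in H3.1K9M and at 16.5 and 16.3 FPKM in H3.1WT (adjusted p = 0.0465). In shNC it averaged 10.3 ± 0.571 FPKM (SD, n = 2), which is between the 2 groups. Pou5f1, the central pluripotency factor Oct4, was at 644 and 716 against 807 and 755 FPKM (adjusted p = 0.429). Among 23 primed genes only Otx2 was called, and the DNA methyltransferase gene Dnmt3a was at 20.3 and 19.4 against 27.9 and 27.7 FPKM (adjusted p = 0.18). None of 22 primitive streak and mesoderm genes passed (Bmp4 was at 20.6 and 15.5 against 9.93 and 12.3 FPKM), and none of 22 primitive endoderm genes (Dab2 was at 4.30 and 3.49 against 1.80 and 3.17). For Tbx3 and Otx2 the adjusted p was 0.359 to 0.41 without H3.1WT replicate 1 and 0.0759 to 0.232 without H3.1WT replicate 2. With H3.1K9M replicate 1 left out Tbx3 passed (0.0325) and Otx2 did not (0.121). With the fibroblast covariate neither passed (0.0517 and 0.0637).

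**Figure D3:**
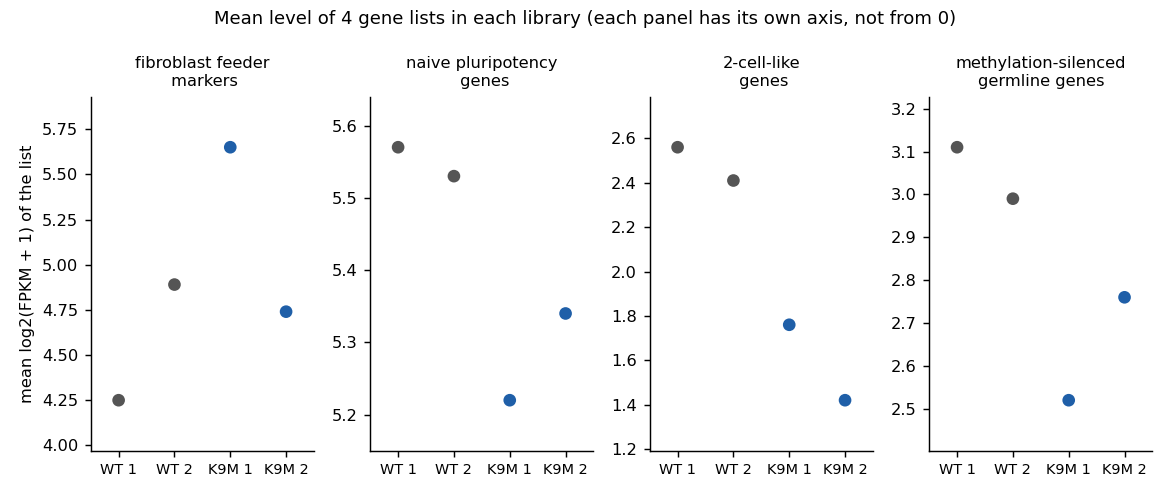
Mean log2(FPKM + 1) over the described genes of 4 lists in each of the 4 libraries, with H3.1WT in grey and H3.1K9M in blue. The 2-cell-like, germline and naive lists are lower in both H3.1K9M libraries, while the fibroblast feeder list is high in H3.1K9M replicate 1 only and its other 3 libraries overlap between the groups.

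A further set of called genes had H3.1WT levels above 10 FPKM and belonged to none of the germ cell, embryo or pluripotency lists, apart from the imprinted gene Mest. Mreg, which encodes melanoregulin, a protein of vesicle transport (chromosome 1, 72159442 to 72212307), was at 43.9 and 39.7 FPKM in H3.1K9M and at 73.0 and 72.9 FPKM in H3.1WT (log2 fold change −0.79, SE 0.08, limma adjusted p = 0.0102). Gabarapl2, an ATG8-family protein of autophagosomes, was at 100.1 and 101 against 149 and 145 FPKM, the smallest relative decrease among the called genes together with Gstm5. Sord, sorbitol dehydrogenase, was at 13.3 and 17.5 against 31.0 and 28.4 FPKM. Replicates of a group were close together in these genes and the gap between groups was wide.

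Gstm5, a glutathione S-transferase gene, was at 16.3 and 19 FPKM in H3.1K9M and at 26.7 and 25.4 FPKM in H3.1WT. Fetub, a secreted protease inhibitor of the cystatin family, was at 6.97 and 6.76 against 13.3 and 10.7 FPKM. The shNC mean of Gstm5 was 19.3 ± 0.0363 FPKM, close to the H3.1K9M values. Of these 5 genes and Mest, none passed without H3.1WT replicate 1 (adjusted p 0.155 to 0.439) or H3.1WT replicate 2 (0.0636 to 0.172), 1, Mreg, passed without H3.1K9M replicate 1 (0.0133 to 0.0976), and all 6 passed without H3.1K9M replicate 2. With the fibroblast covariate 3 of the 6 passed (0.011 to 0.0883).

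Mest was the only called gene among 44 described imprinted genes, which are expressed from the allele of 1 parent. It encodes a hydrolase expressed from the paternal allele, and it was at 55.7 and 59.9 FPKM in H3.1K9M and at 82.0 and 89.5 FPKM in H3.1WT (adjusted p = 0.0227). The shNC mean was 58.6 ± 1.75 FPKM and the H3.1K36M mean 58.6 ± 1.71 FPKM (SD, n = 2), both inside the range of H3.1K9M. Mest was thus highest in H3.1WT, and its lower level was not particular to H3.1K9M. The maternally expressed noncoding RNAs of the Dlk1 region stood higher in H3.1K9M without passing. Rian was at 63.0 and 60.7 against 45.1 and 40.2 FPKM (adjusted p = 0.059) and Meg3 at 108 and 107 against 79.7 and 68.8 FPKM (adjusted p = 0.19). H19, another maternal noncoding RNA, was at 33.3 and 45.5 against 54.5 and 69.6 FPKM (adjusted p = 0.233).

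Among 55 described KRAB zinc finger genes, repressors that bring the H3K9 machinery to transposons, 1 fell and 40 were below 0, at a median of −0.04. Of all 12508 described genes 0.304% fell and 6509 were below 0. Zfp951 was at 0.916 and 0.686 FPKM in H3.1K9M and at 3.70 and 3.63 FPKM in H3.1WT (adjusted p = 0.0178). Rex2 was at 6.03 and 4.61 against 9.47 and 10.2 FPKM and did not pass (adjusted p = 0.214). Outside these lists, Arl14epl was at 3.45 and 4.38 against 9.16 and 10.5 FPKM. For Zfp951 and Arl14epl the adjusted p was 0.155 to 0.171 without H3.1WT replicate 1 and 0.0828 to 0.114 without H3.1WT replicate 2. With H3.1K9M replicate 1 left out Zfp951 passed (0.0372) and Arl14epl did not (0.0619).

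The small nucleolar RNA genes Snora70 and Snora81, guides of RNA pseudouridylation, were called lower as well, and their values need caution. Snora70 was listed at 0 in both H3.1K9M and both H3.1K36M libraries, at 57.6 and 71.7 FPKM in H3.1WT, and at 209 and 31.3 FPKM in shSuv39h1. Snora81 was at 17.5 and 9.64 against 80.2 and 64.7 FPKM. It lies inside another gene, as most of its kind do, and values of such short genes vary widely between libraries. Snora70 and Snora81 had adjusted p values of 0.155 to 0.265 without H3.1WT replicate 1 and 0.0759 to 0.114 without H3.1WT replicate 2, and Snora70 one of 0.0546 without H3.1K9M replicate 1. Rprl3, a short noncoding RNA gene, was listed at 0 in both H3.1K9M libraries as well, at 2.75 and 4.35 FPKM in H3.1WT (adjusted p = 0.363).

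Only 3 genes rose, all from moderate levels. Enpp3, an ectoenzyme that splits extracellular nucleotides (chromosome 10, 24772406 to 24842823), was at 10.9 and 9.05 FPKM in H3.1K9M and at 4.66 and 5.52 FPKM in H3.1WT (log2 fold change 0.85, SE 0.117, limma adjusted p = 0.0227). Gadd45a, a stress and DNA damage response gene (chromosome 6, 67035096 to 67037457), was at 27.1 and 28.0 against 18 and 16.5 FPKM. Creld1, a membrane protein with EGF-like domains (chromosome 6, 113483297 to 113493343), was at 17 and 16.6 against 10.8 and 12 FPKM. The groups did not overlap in any of the 3. For these 3 genes no call held without H3.1WT replicate 1, H3.1WT replicate 2 or H3.1K9M replicate 1. With the fibroblast covariate 1 of the 3 passed (0.046 to 0.0756).

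Gadd45a was the only call among 34 described p53 targets, of which 10 had both H3.1K9M values above both H3.1WT values (14.8% of all genes did). The next were Perp, a membrane protein of cell death (25.8 and 16.9 against 13.1 and 13 FPKM, adjusted p = 0.215), and the kinase Plk3 (22.0 and 17.1 against 14.6 and 14.9 FPKM, adjusted p = 0.314). The list median was 0.16 in replicate 1 and 0.03 in replicate 2. None of 39 genes of amino acid and endoplasmic reticulum stress, driven by ATF4 and the unfolded protein response, passed. Nupr1, a small stress-induced chromatin protein, was closest, with 34.3 and 33.5 against 17.5 and 22.3 FPKM (adjusted p = 0.0567), and Atf4 itself was at 96.2 and 112 against 82.2 and 81.4 FPKM (adjusted p = 0.272).

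No gene of 6 lists of signalling targets passed the test. Medians were above 0 in both replicates for the immediate early, LIF, FGF and YAP lists, whereas the Wnt list was at −0.01 and −0.13 and the Nodal and BMP list at 0.31 and −0.05. Of 33 described immediate early genes, which cells switch on within minutes of a stimulus, 17 had both H3.1K9M values above both H3.1WT values (14.8% of all described genes did). Their median log2 fold change was 0.30 in H3.1K9M replicate 1 and 0.24 in replicate 2. Of 21 targets of LIF and STAT3, the pathway that keeps these cells pluripotent, 11 did so, at medians of 0.15 and 0.32. Bcl3, a nuclear cofactor of NF-kappa-B and a LIF target, was at 17.6 and 18.7 FPKM in H3.1K9M and at 13.7 and 14.9 FPKM in H3.1WT (adjusted p = 0.377). Of 22 feedback genes of FGF and ERK signalling 8 did so, at medians of 0.40 and 0.13. The median over both replicates was 0.28, and 0.10 with the fibroblast covariate. Etv4, an ETS factor induced by ERK, was at 47.0 and 43.9 against 35.1 and 36.3 FPKM (adjusted p = 0.113), and Ier3 at 71.6 and 62.2 against 42.1 and 51.5 FPKM (adjusted p = 0.309).

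Targets of YAP and SRF, which respond to cell spreading and tension, followed the fibroblast transcripts. The median of 28 described genes was 0.76 in H3.1K9M replicate 1 and 0.07 in replicate 2, and that of 35 described fibroblast markers was 1.16 and 0.17. All 35 fibroblast markers had a log2 fold change above 0, as did 5999 of all 12508 described genes. Of the 35, 8 had both H3.1K9M values above both H3.1WT values (14.8% of all described genes did), and none passed. With the mean of the fibroblast markers as a covariate the YAP and SRF median was −0.01. Interferon response genes had medians of 0.21 in replicate 1 and −0.04 in replicate 2, and −0.03 with the covariate. With that covariate 26 of the 41 called genes still passed, and all kept their direction. Under the covariate the list median was −1.10 for 2-cell-like genes, −0.32 for methylation-silenced germline genes (−0.45 without it), −0.10 for naive genes (−0.19 without it) and 0.22 for immediate early genes (0.30 without it).

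**Figure D4:**
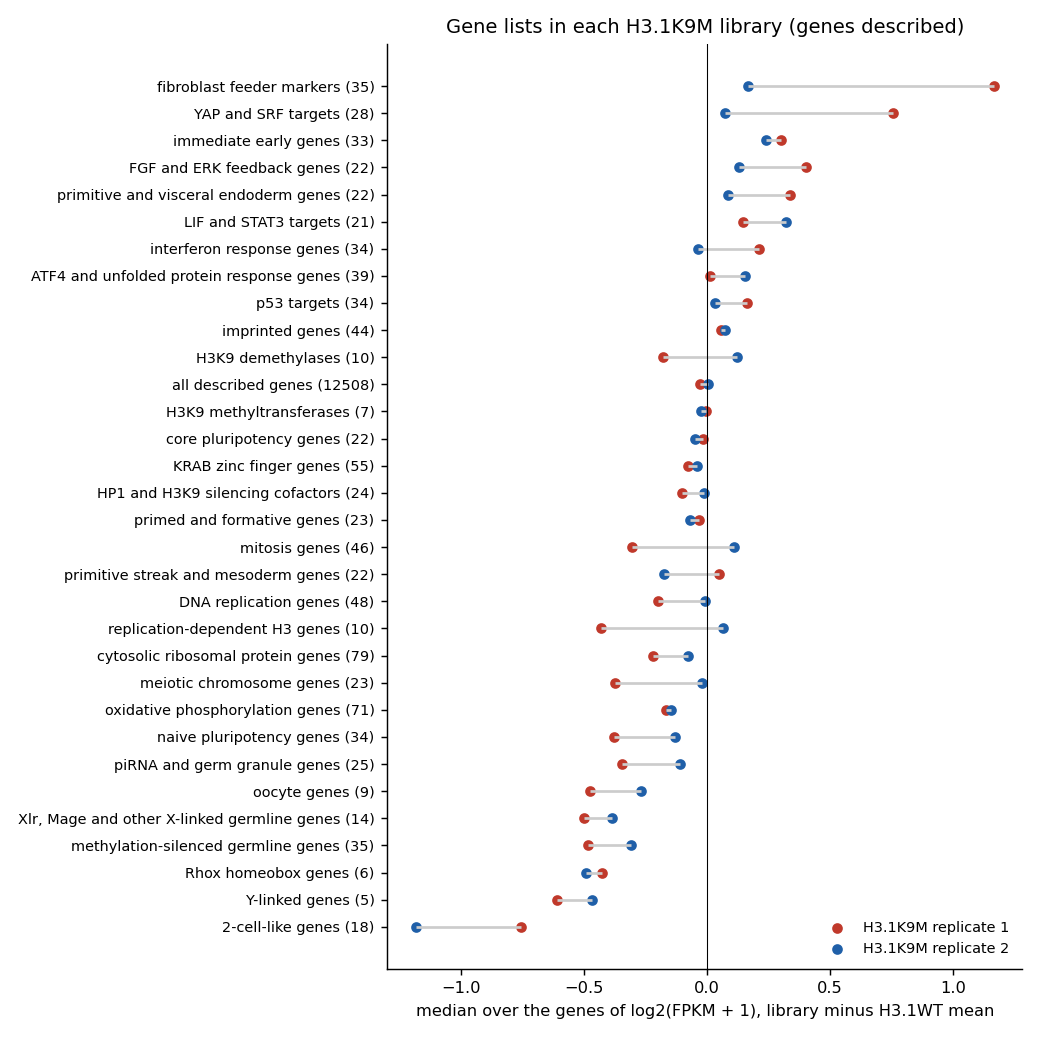
For each gene list, with the number of described genes in parentheses, the median over its genes of log2(FPKM + 1) in H3.1K9M replicate 1 (red) and replicate 2 (blue) minus the mean of the 2 H3.1WT libraries. Fibroblast, YAP and SRF, 2-cell-like, mitosis and meiotic lists are among those with replicates far apart. Of these the mitosis list has its replicates on both sides of 0. The others of these lie on the same side of 0 in both, as do the germline, Y-linked and immediate early lists.

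The largest increases that missed the test were genes of matrix and fibroblasts. Postn, which encodes periostin, was at 8.43 and 4.39 FPKM in H3.1K9M and at 1.86 and 3.22 FPKM in H3.1WT (adjusted p = 0.214). Thbs1, Lox, Col6a3, Loxl3, Ctgf, Cd248, Cyr61 and Htra1 followed, at ratios of 1.70 to 2.05 and adjusted p values of 0.246 to 0.402. In each of these 9 genes H3.1K9M replicate 1 was the highest of the 4 libraries. The part of the fibroblast level in these differences was not tested gene by gene.

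Among the largest decreases that missed the test, Rpl39l, a testis paralogue of a ribosomal protein, was at 7.26 and 5.14 FPKM in H3.1K9M and at 17.1 and 16.1 FPKM in H3.1WT (adjusted p = 0.0587). Calb2, the calcium-binding protein calretinin, was at 3.83 and 7.44 against 13.4 and 12.9 FPKM (adjusted p = 0.0659). Both had groups far apart, and the spread within H3.1K9M was wide for its level in Calb2 only. Hpcal4, a neuronal calcium sensor, was at 2.55 and 4.79 against 7.45 and 6.48 FPKM (adjusted p = 0.209). Calcoco2, an autophagy receptor, was at 9.17 and 10.2 against 16.8 and 18.1 FPKM (adjusted p = 0.286). A2m (9.23 and 23.0 against 33.4 and 26.3 FPKM) and Wfdc10 (1.71 and 4.22 against 8.26 and 5.22 FPKM), both protease inhibitor genes, had adjusted p values of 0.365 and 0.386.

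None of the genes that write, read or erase H3K9 methylation passed the test. These were 7 described H3K9 methyltransferases, 24 HP1 proteins and silencing cofactors, and 10 demethylases. Suv39h1 was at 11.2 and 11 FPKM in H3.1K9M and at 10.3 and 12.2 FPKM in H3.1WT, and Suv39h2 at 5.64 and 6.46 against 5.43 and 5.63 FPKM. The groups overlapped for Suv39h1 and were next to each other for Suv39h2. Atf7ip2, a cofactor of Setdb1, was at 3.02 and 3.25 against 4.11 and 3.95 FPKM (adjusted p = 0.332). Chaf1a, a subunit of the complex that lays down H3.1, was at 36.9 and 35.3 against 41.1 and 45.5 FPKM (adjusted p = 0.43), and Atrx, a chaperone partner at heterochromatin, at 19.5 and 19.7 against 16.5 and 18.1 FPKM (adjusted p = 0.449).

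None of 10 described replication-dependent H3 genes passed, at medians of −0.43 in replicate 1 and 0.06 in replicate 2. Hist1h3c was at 10.1 and 11.2 FPKM in H3.1K9M and at 15.9 and 15.1 FPKM in H3.1WT, and Hist1h3e at 6.06 and 6.31 against 8.99 and 8.54 FPKM, with adjusted p values of 0.309 and 0.315. Hist2h3c1 went the other way, at 1.32 and 1.18 against 0.526 and 0.784 FPKM (adjusted p = 0.303). These transcripts largely lack a poly(A) tail, and mRNA capture was used, so their levels here are not those of the histone. The transgenes themselves could not be told from these genes in values per gene symbol.

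No gene of the respiratory chain or of the cytosolic ribosome passed the test, and most of their log2 fold changes were below 0. Of all 12508 described genes 6509 were below 0. Of 71 nuclear genes of the respiratory chain 62 were below 0 and 39 had both H3.1K9M values below both H3.1WT values (20.2% of all described genes did), with medians of −0.17 and −0.15 in the replicates. Ndufb10, a subunit of complex I, was at 132 and 142 FPKM in H3.1K9M and at 173 and 166 FPKM in H3.1WT (adjusted p = 0.216), and Uqcr10, a subunit of complex III, at 355 and 358 against 450.3 and 417 FPKM (adjusted p = 0.272). Of 79 ribosomal protein genes 76 were below 0, at medians of −0.22 and −0.08, and Rpl27 was at 949.9 and 1175 against 1424 and 1316 FPKM (adjusted p = 0.309). With quantile normalization the ribosomal protein median was −0.02, and with the mean of the fibroblast markers as a covariate it was −0.03. Mean log2 levels of the ribosomal protein genes were 10.13 and 10.22 in H3.1K9M and 10.38 and 10.23 in H3.1WT, so H3.1WT replicate 1 stood apart and the other H3.1WT library was level with H3.1K9M replicate 2. Abundant genes more often lay below H3.1WT than above it. Of 707 described genes with a mean of at least 100 FPKM, 32.8% had both H3.1K9M values below H3.1WT and 5.09% both above, at a median of −0.10. Of 2485 genes between 2 and 5 FPKM these shares were 15.7% and 16.7%, at a median of 0.02.

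Cell cycle genes differed between the H3.1K9M libraries. The median of 46 mitosis genes was −0.31 in replicate 1 and 0.11 in replicate 2, and that of 48 DNA replication genes −0.20 and −0.01, and no member passed. Kif20a, a mitotic kinesin, was at 40.8 and 44.4 FPKM in H3.1K9M and at 50.4 and 52.5 FPKM in H3.1WT (adjusted p = 0.326). Pold4, a small subunit of DNA polymerase delta, was at 11.8 and 11.4 against 8.48 and 8.09 FPKM (adjusted p = 0.234). It was 1 of 7 genes of its list above 0, while 41 were below 0. The largest single gap between the H3.1K9M libraries was in Rps27, at 110 and 6.08 FPKM, and this gene was at 6.53 and 44.1 FPKM in H3.1WT. Ccl2, Isg15 and Mmp13, genes of inflammation and of fibroblasts, were also higher in replicate 1, with Ccl2 at 152 and 36.8 FPKM. Txnip and Ddit4, genes of energy stress, were higher in replicate 2, at 225 against 80.7 and 298 against 112 FPKM.

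Along the genome the lower genes were mostly scattered. Of the 37 with a position 12 lay in 4 groups of neighbours less than 1 Mb apart, which were the Zscan4 genes, the chromosome 12 cluster, Zfy1 with Uba1y, and Fetub with Snora81. Chromosome 7 held 7 lower genes of 941 described (0.744%), chromosome X 6 of 409 (1.47%) and chromosome 12 4 of 417 (0.959%). Over all described genes the share was 0.304%. The Zscan4 genes are among those of chromosome 7, and the lower genes of chromosome 12 are all in its cluster. Chromosome 11 held none, yet 302 of its 1040 described genes (29%) had both H3.1K9M values below both H3.1WT values, the highest share of any autosome. The median on chromosome 11 was −0.13 in H3.1K9M replicate 1 and −0.01 in replicate 2.

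Most of the lower genes were also lower when Suv39h2 was knocked down, in a comparison that shares no library with this one. Both comparisons come from the same fit and share its estimate of spread for each gene, so their calls are not independent. Suv39h2 itself was at 1.61 and 1.76 FPKM in shSuv39h2 and at 4.80 and 4.78 FPKM in shNC. In shSuv39h2 against shNC 550 described genes were called lower (4.4%) and 691 higher (5.52%). Of the 38 genes lower in H3.1K9M 32 were called lower there, which is 84.2% of the 38 and 5.82% of the 550, and none was called higher. All 3 genes that rose in H3.1K9M were called higher in shSuv39h2. The median log2 fold change of the 38 genes in shSuv39h2 was −1.26, against 0.05 over all described genes. Xlr3b averaged 7.69 ± 0.67 FPKM in shNC and 0.781 ± 0.103 in shSuv39h2, and Zscan4c 6.32 ± 1.93 and 0.484 ± 0.0966 (SD, n = 2). Enpp3 averaged 4.28 ± 0.149 and 10.2 ± 0.647 FPKM. The genes not called lower were Snora70, Snora81, Gabarapl2, Mest, Tbx3 and Otx2, which are none of the germ cell or 2-cell-like genes. Mest averaged 58.6 ± 1.75 and 60.9 ± 2.74 FPKM and Tbx3 20.9 ± 1.44 and 25.3 ± 0.301 FPKM in shNC and shSuv39h2.

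**Figure D5:**
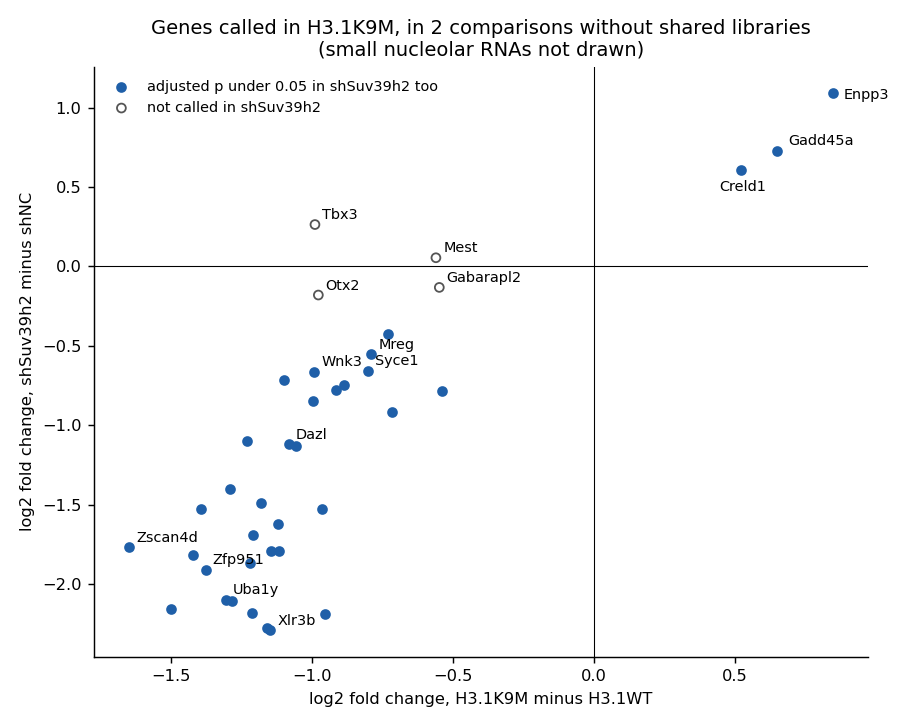
Each point is a called gene, with its log2 fold change in H3.1K9M against H3.1WT on the x axis and in shSuv39h2 against shNC on the y axis. Filled points were called in shSuv39h2 as well. Small nucleolar RNAs are not drawn, and the open points are Tbx3, Mest, Gabarapl2 and Otx2.

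Suv39h1 was at 4.91 and 5.1 FPKM in shSuv39h1 and at 8.58 and 7.52 FPKM in shNC (limma adjusted p = 0.0877, not called). In shSuv39h1 against shNC 8 described genes were called lower (0.064%) and 11 higher (0.0879%). Of the 38 genes 2 were called lower there, Uba1y and Fkbp6, which is 5.26% of the 38 and 25% of the 8. The median log2 fold change of the 38 was −0.38, with 29 below 0. Both knockdowns were set against the same shNC libraries. Uba1y averaged 2.08 ± 0.0591 FPKM in shSuv39h1 and Fkbp6 2.59 ± 0.29 FPKM, against 9.09 ± 0.555 FPKM of Fkbp6 in shNC.

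Levels of the 38 lower genes in the other lines are given side by side, since the H3.1K9M and H3.1WT values chose these genes. Their median level was 6.57 FPKM in shNC, 6.06 in H3.1WT, 9.36 in H3.1K36M, 3.79 in shSuv39h1, 1.97 in H3.1K9M and 0.988 in shSuv39h2. The shNC mean was below the H3.1WT mean for 27 of the 38 genes and at or below the H3.1K9M mean for 0. H3.1K36M was set against the same H3.1WT libraries, and its values are given side by side only. Fkbp6 averaged 11.2 ± 0.172 FPKM in H3.1K36M, Dazl 9.41 ± 0.671 and Nlrp4c 5.61 ± 0.0876, all above both H3.1WT libraries. Wnk3, at 1.95 ± 0.0608 FPKM, and Otx2, at 1.82 ± 0.208 FPKM, were below both.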

How the data were processed

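mRNA was measured in 12 libraries, of which 4 are compared here. Total RNA went through mRNA capture, and the labels name both NEBNext Ultra and TruSeq v2 kits without saying which made which library. The authors deposited 1 FPKM value for each gene symbol and library. The unit was inferred from steps between low values. TopHat2 2.0.13, Cuffdiff 2.2.1 and mm10 are named in the submitters' processing notes. Settings, scaling and annotation were not given in the sources used here. The files hold 23355 genes each and have 23354 in common.

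Values were tested with limma 3.58.1 in R 4.3.3 on log2(FPKM + 1), a pseudocount of 1. One fit covered all 12 libraries and 13109 genes that reached 1 FPKM in 2 or more of them, with an intensity trend and 1 mean per group (residual degrees of freedom 6, prior 3.66). Tests are two-sided, with Benjamini-Hochberg adjustment and a threshold of 0.05. The fit was also run on simulated data with known changes, and no result given here rests on that run. Gene positions come from GENCODE M21 (GRCm38), promoters from RefSeq (GRCm38.p6). Gene lists (48, of which 31 are described) are summarised by counts and medians, without a test.

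Named genes are those called with a plain symbol, up to 10 uncalled genes per direction with the largest changes, no overlap and 3 FPKM, up to 4 per described list with the smallest p, and Suv39h1 and Suv39h2. 1 gene that the rule names is not reported here. Members and lists were chosen with earlier results of these data known. Small nucleolar RNAs, clones and predicted genes (Gm names) fall outside the rule, as do Nanog, Rhox5, Rhox6 and genes named for the gap between the H3.1K9M libraries, and were named after their values were seen. Replicate 1 libraries of H3.1K9M and H3.1WT deviated in opposite directions (correlation −0.384), so replicate numbers were not used as pairs. Alternatives were other pseudocounts, filters, scalings, weights and sets of libraries, a replicate block and each library left out. A crossed pairing and a fibroblast marker covariate were added after seeing the data.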

Additional observations from a re-analysis of the deposited data

How the results depend on the processing

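Among 13109 genes limma called 3 higher and 38 lower in H3.1K9M. The higher count became 5 with median-of-ratios scaling, and 0 without a filter on low values (2094 genes at an unadjusted p under 0.05), with array quality weights (677) and over the 6 overexpression libraries (1282). The lower count in these last 3 was 12, 1 and 2, and it was 24 with a filter of 5 FPKM. Over the 4 libraries alone 1 rose and 2 fell. Leaving out 1 library gave 0 to 354 higher and 2 to 341 lower genes, with the highest counts without H3.1K9M replicate 2. All 41 called genes kept their direction wherever they were tested. With 1 library left out or over the 4 libraries alone no other outcome was possible, because the groups did not overlap for these genes.

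With the replicate number as a replicate block, 4 rose and 35 fell over 12 libraries, of which 32 were among the 41, and 1 rose and 2 fell over the 4 libraries. The crossed pairing, chosen after seeing the data, gave 278 higher and 216 lower. With the fibroblast covariate, also added later, 4 rose and 28 fell.

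Of the uncalled genes named here 3 changed sign: Kdm1a was at −0.466 to 0.019, Phf2 at −0.036 to 0.435 and Suv39h1 at −0.129 to 0.102 on the log2 scale with 1 library left out, and Suv39h1 at 0.008 with median-of-ratios scaling. List medians changed sign under at least 1 setting in 9 lists: H3K9 methyltransferases, silencing cofactors, demethylases, core pluripotency, mitosis, interferon, primitive streak, replication-dependent H3, and YAP and SRF targets. The cause of these changes was not tested. Depth limits genes under 1 FPKM.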
